A study of Caenorhabditis elegans with 30 samples.

Results

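The major sperm protein genes (msp) and the related ssp genes of C. elegans were followed here on 30 Affymetrix whole-worm arrays. Their members were taken by name, as the probe sets for which every annotated gene symbol begins with msp- or ssp-. The rule gave 41 of the 22625 probe sets of the table, or 41 of the 22548 that are left without the 77 Affymetrix controls. Of these, 31 stood for msp genes and 10 for ssp genes. Together they name 30 of the 35 msp genes and 12 of the 13 ssp genes in RefSeq (assembly WBcel235). A probe set stood for 1 gene in 32 cases and was shared by several near-identical genes in 9.

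Major sperm proteins are small proteins that are made in large amounts in nematode sperm, where they form the filaments that drive the crawling of these cells in place of actin. Released from sperm, they also act as the signal that makes oocytes resume meiosis and the gonadal sheath contract, in part through the Eph receptor VAB-1. In hermaphrodites the msp genes are transcribed while spermatocytes form, before the germ line turns to making oocytes, and mature sperm no longer transcribe. The ssp genes encode shorter sperm-specific proteins with the same kind of domain.

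The arrays came from synchronized young adults selected on a COPAS Biosort, with a gate set to leave out L4 and younger animals, and 3 arrays were made for each of 10 groups. Wild type N2 worms were kept on isotonic plates (51 mM NaCl) or on hypertonic plates (200 mM NaCl) for 15 min, 1 h, 6 h or 1 generation, the last having been grown from the first larval stage on hypertonic plates. Osmotic stress resistant (osr) mutants were grown on isotonic plates, namely osm-7(n1515) and osm-11(n1604), which affect secreted Notch ligand proteins, osm-8(n1518), which affects a mucin-like protein, and dpy-9(e12) and dpy-10(e128), which affect cuticle collagens. All mutants were compared with the same N2 isotonic arrays, as were the 4 exposures, so that the 9 comparisons with isotonic N2 share their control. Worms for 15 min, 1 h and 6 h were washed off and moved as young adults. No isotonic group is labelled as matched to an exposure in time or transfer. Time on salt, the transfer and adult age at collection therefore cannot be told apart in the wild type series. The 3 arrays of a group were separate preparations chosen for RNA quality, and each mutant was represented by 1 allele, so that p-values measure the spread between these preparations only.

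Values are log2 intensities after the authors' GC-RMA normalization. The median intensity of an array lay between 9.93 and 14.5 on the linear scale, and within each group the lowest correlation between arrays across probe sets was between 0.990 and 0.998. Between 32.9 and 35.8% of probe sets exceeded a log2 intensity of 6. The median change of all probe sets tested was between -0.07 and -0.01 on the log2 scale at the 4 exposures and -0.07 for osm-7, and it was -0.23 for dpy-9, -0.22 for dpy-10, -0.16 for osm-8 and -0.11 for osm-11. All 41 members passed the filter on low values, which left 61.5% of the probe sets to be tested, and 38 of them exceeded a log2 intensity of 6 on 3 or more arrays. In whole worms, fewer spermatocytes and less RNA per spermatocyte cannot be told apart.

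The members do not measure 41 genes independently. The msp genes are so alike that 28 of the 30 named here have the same length of 384 bp in the annotation, and 35 of the 41 probe sets end in _x_at, the Affymetrix suffix for probes that can also bind other transcripts. One further probe set ends in _s_at, the suffix for probes shared by transcripts of several genes, and 5 end in _at alone (4 for ssp genes and 1 for msp-32). The msp probe sets lie on chromosomes II (14 probe sets) and IV (17 probe sets), and the ssp probe sets on chromosomes I (4 probe sets), IV (4 probe sets) and V (2 probe sets). Of the 42 genes named, 15 lie next to another member on the chromosome.

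The level of the family differed widely between groups. The median over the 41 members was 8.45, 7.78 and 8.92 on the 3 isotonic N2 arrays. At 200 mM NaCl the 15 min arrays stood at 11.10, 11.18 and 11.19, the 1 h arrays at 10.49, 10.10 and 9.83, the 6 h arrays at 6.09, 6.11 and 6.28, and the 1 generation arrays at 10.14, 10.17 and 10.12. In wild type, the 3 arrays of each exposure therefore lay wholly above the isotonic arrays at 15 min, 1 h and 1 generation and wholly below them at 6 h, whereas the 1 h and 1 generation arrays overlapped.

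Among the osr mutants, the median over the members was 13.45, 13.35 and 13.43 for dpy-9, 12.79, 12.85 and 12.73 on the dpy-10 arrays, and 12.50, 12.12 and 12.14 for osm-8. The osm-7 arrays stood at 7.17, 7.53 and 6.86 and the osm-11 arrays at 8.0, 8.13 and 9.17. The dpy-9, dpy-10 and osm-8 arrays were thus all above every N2 array, the osm-7 arrays were all below the isotonic N2 arrays, and the osm-11 arrays overlapped them. The lowest group mean was that of the 6 h exposure for 37 members and the highest was that of dpy-9 for 38 members.

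**Figure D1:**
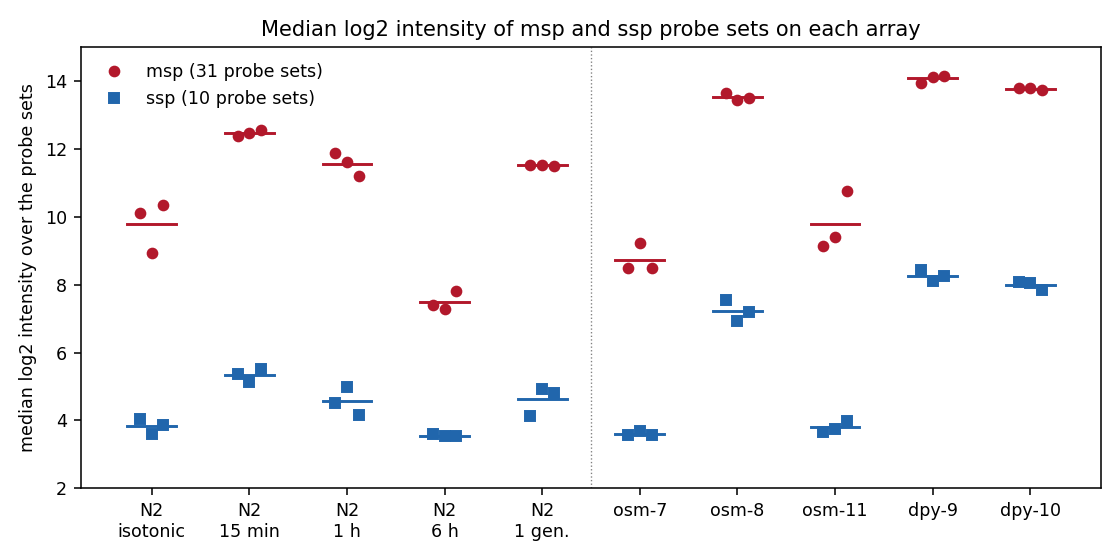
Median log2 intensity over the 31 msp probe sets (circles) and over the 10 ssp probe sets (squares) on each of the 30 arrays, with the mean of the 3 arrays as a bar. The msp median fell to between 7.30 and 7.81 on the 6 h arrays and stood at 13.4 or more on every osm-8, dpy-9 and dpy-10 array. Heights of the 2 families are not comparable with each other, since intensities of different probe sets have no common scale.

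Individual arrays within a group moved together across the family. Isotonic N2 replicate 2 was below the mean of the other 2 isotonic arrays for 41 of 41 members, with a median difference of -0.81. Replicate 3 of osm-11 was above the other 2 osm-11 arrays for 40 of 41 members, with a median difference of 1.17. At 15 min the same median difference was between -0.04 and 0.06 for all 3 arrays. Counts that turn on these arrays are given with and without them.

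Most of the family was higher after 15 min at 200 mM NaCl. A probe set was called when its change reached 3-fold and its adjusted p did not exceed 0.01 (limma across all probe sets tested, Benjamini-Hochberg adjustment). By that rule 35 of 41 members (85.4%) were higher and 0 were lower, against 1.28% of all probe sets tested that were called higher. The median change of the members was 2.49 on the log2 scale (5.63-fold), beside -0.07 for all probe sets tested. All 31 msp probe sets were called, with changes between 2.24 and 2.87 and adjusted p-values between 1.88e-06 and 0.00396. Members made up 35 of the 178 probe sets called higher at 15 min.

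The probe set for msp-65 alone, the msp gene with the highest mean over the 30 arrays, read 11.12, 10.41 and 11.41 on the isotonic arrays and 13.26, 13.36 and 13.43 at 15 min. It then read 12.72, 12.55 and 12.09 at 1 h, 8.36, 7.94 and 8.85 at 6 h and 12.62, 12.49 and 12.55 at 1 generation. The values of each exposure did not overlap those of the isotonic arrays, and the 6 h values were the lowest of the series. The changes from isotonic plates were 2.37 ± 0.26 (SE) at 15 min, 1.48 ± 0.26 at 1 h, -2.59 ± 0.26 at 6 h and 1.58 ± 0.26 at 1 generation, with adjusted p-values of 5.19e-05, 0.00237, 2.81e-05 and 0.00124. The changes at 1 h and 1 generation passed the adjusted p and were just under 3-fold (2.78-fold and 2.98-fold).

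After 1 h the family was still raised, by less. By the rule above 16 of 41 members were higher and 0 lower, against 0.981% of all probe sets, and the median change was 1.51 (2.85-fold), beside -0.01 for all probe sets. The count rests largely on the 3-fold line, because 33 of 41 members had an adjusted p of at most 0.01, and 15 of the 16 msp probe sets that were not called were among them. With the arrays centred on their median there were 8 calls and with 32 added before the log2 there were 10. The count also rests on single arrays. Without isotonic replicate 2 there was 1 call, without isotonic replicate 3 there were 30, and without 1 h replicates 1, 2 or 3 there were 3, 10 and 26, while the median change stayed between 1.22 and 1.76. Set directly against 15 min, 40 of 41 members were lower at 1 h, with a median of -0.94. By limma 0 were called in either direction, against 0.786% of all probe sets, whereas 39 had an unadjusted p under 0.05. For 37 members all 3 values at 1 h were below all 3 at 15 min, as they were for 8.95% of the probe sets tested.

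By 6 h the direction was opposite. Here 28 of 41 members (68.3%) were lower than on isotonic plates and 0 were higher, against 0.663% of all probe sets that were called lower. The median change was -2.30, a fall to 4.94-fold below the isotonic level, beside -0.01 for all probe sets tested. The 28 called members were all msp probe sets, with changes from -2.69 to -1.82, and they made up 30.4% of the 92 probe sets called lower at 6 h. All 28 had also been called higher at 15 min. Leaving out 1 array at a time gave between 65.9 and 73.2% of members called, isotonic replicate 2 included.

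The fall at 6 h was largest for msp-64. Its probe set read 7.85, 7.1 and 8.72 on isotonic plates, 10.42, 10.82 and 10.59 at 15 min, 10.05, 9.27 and 9.05 at 1 h, 5.33, 4.99 and 5.28 at 6 h and 9.90, 9.41 and 9.59 at 1 generation. The 6 h arrays were all below the isotonic arrays and the 15 min arrays all above them. The change at 6 h was -2.69 ± 0.35 (SE, adjusted p = 0.000219), following one of 2.72 ± 0.35 at 15 min (adjusted p = 0.000172). The probe set with the most genes, shared by msp-51, msp-53, msp-55 and msp-57, read 10.78, 10.29 and 11.33 on isotonic plates, 13.25, 13.10 and 13.08 at 15 min and 8.23, 7.97 and 8.68 at 6 h. Its changes were 2.34 ± 0.24 at 15 min and -2.51 ± 0.24 at 6 h (adjusted p = 3.02e-05 and 1.9e-05). At 1 h it read 12.54, 12.25 and 11.99 and at 1 generation 12.54, 12.35 and 12.51, the latter a change of 1.67 ± 0.24 (adjusted p = 0.000486).

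The steps into and out of the 6 h level were larger than any median change from isotonic plates. From 1 h to 6 h, 33 of 41 members (80.5%) were lower and 0 higher, with a median of -3.89, when 1.38% of all probe sets were called lower. Between 6 h and 1 generation, 33 of 41 members were higher and 0 lower, with a median of 3.91, when 0.801% of all probe sets were called higher, and members were 33 of the 111 probe sets so called. The 1 generation animals had been on hypertonic plates since hatching, so that the exposures differ in more than their length. In the comparison with isotonic plates, 23 of 41 members (56.1%) were higher after 1 generation and 0 lower, against 0.959% of all probe sets, with a median change of 1.62 (3.07-fold), beside -0.04 for all probe sets. As at 1 h, the count depends on isotonic replicate 2, without which it was 1, and it was 15 without 1 generation replicate 3 and 13 with the arrays centred on their median, whereas the median change stayed between 1.28 and 1.88 with any 1 array left out. The 1 h and 1 generation calls had 14 members in common.

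Over the 4 exposures together, 38 of 41 members passed limma's F test at an adjusted p of 0.01, as did 14.9% of all probe sets, and 35 also changed by at least 3-fold at 1 or more exposures, as did 2.9%. The 3 that did not pass were ssp-19, ssp-37 and the probe set shared by ssp-32 and ssp-36. For 39 members the group means followed 1 order, with 15 min highest, 1 h and 1 generation next, isotonic below them and 6 h lowest. Among them is ssp-19, whose N2 values all lay near the background, where such an order cannot be resolved. The order was read from these same values, and its share over all probe sets was not computed. All 4 exposures gave a call for 12 members, and 6 members were called at none.

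**Figure D2:**
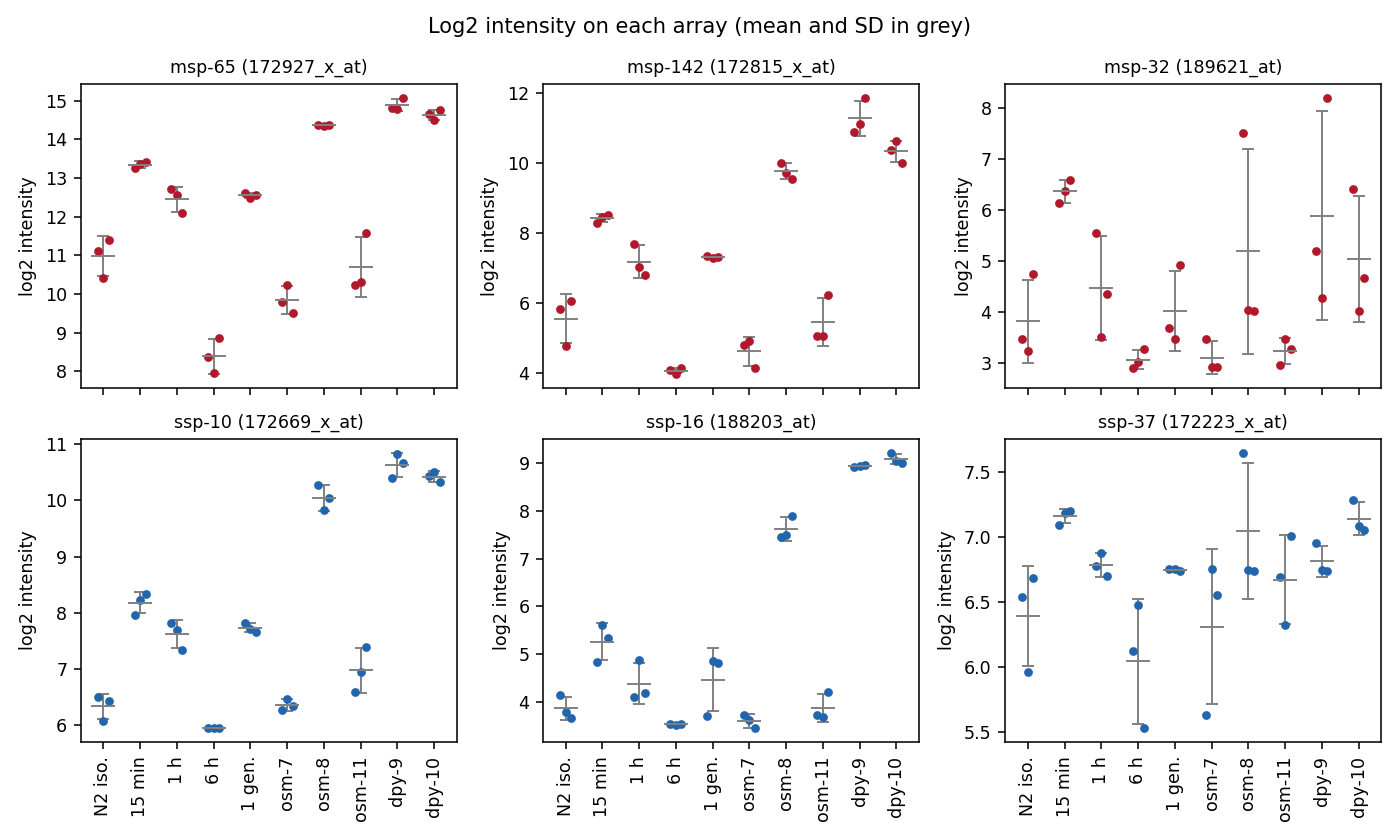
Log2 intensity of 6 probe sets on each array (points, 3 a group), with the mean and SD of the group in grey and an axis of its own for each probe set. The msp-65, msp-142 and ssp-10 panels show the rise at 15 min and the high osm-8, dpy-9 and dpy-10 values, the msp-32 panel shows the spread between its replicates, ssp-16 shows high values in the same mutants, and ssp-37 stays between 5.53 and 7.65 throughout.

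Fewer of the ssp probe sets were called in wild type. At 15 min 4 of 10 were called higher, against 1.28% of all probe sets, and 7 of 10 had an adjusted p of at most 0.01. At 1 h and 1 generation 1 of 10 was called higher, against 0.981% and 0.959%. At 6 h none was called, when 0.663% of all probe sets were called lower. The median ssp change was 1.23 at 15 min and -0.32 at 6 h, beside 2.53 and -2.39 for msp. At 6 h 2 of the 10 passed the adjusted p of 0.01 without reaching 3-fold. The difference between msp and ssp changes was not tested, and several ssp probe sets lay near the background, where a fall cannot be resolved.

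The probe set for ssp-10, the ssp gene with the highest mean, read 6.49, 6.07 and 6.42 on isotonic plates, 7.97, 8.22 and 8.34 at 15 min, 7.82, 7.69 and 7.34 at 1 h, 5.94, 5.94 and 5.94 at 6 h and 7.82, 7.72 and 7.66 at 1 generation. Its 15 min, 1 h and 1 generation values were all above the isotonic ones, and its 6 h values were all below them. The 6 h values had an SD of only 0.0012. A lower limit of this probe set, which could cut the fall short, was not tested, so that fall and rise cannot be compared in size. The changes were 1.85 ± 0.14 at 15 min (adjusted p = 3.13e-06) and -0.39 ± 0.14 at 6 h (adjusted p = 0.114). The probe set shared by ssp-9 and ssp-11 had the largest rise of all members at 15 min, 3.04 ± 0.21 (adjusted p = 1.92e-06), and was the ssp probe set called at 1 h and at 1 generation.

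ssp-35 had the largest 6 h change of the ssp probe sets for 1 gene. It read 4.79, 4.35 and 4.58 on isotonic plates, 6.15, 6.07 and 6.57 at 15 min, 5.93, 5.67 and 5.37 at 1 h, 3.65, 3.80 and 3.75 at 6 h and 5.83, 5.62 and 5.31 at 1 generation. Its 6 h values were all below the isotonic ones, with a change of -0.84 ± 0.18 (adjusted p = 0.00909), under the 3-fold line. ssp-34 read 3.95, 3.40 and 3.29 on isotonic plates, 5.92, 4.68 and 5.71 at 15 min, 4.72, 5.11 and 4.12 at 1 h, 2.77, 3.42 and 3.53 at 6 h and 4.25, 4.98 and 4.78 at 1 generation. Its rise at 15 min was 1.89 ± 0.35 (adjusted p = 0.00253), whereas its 6 h values overlapped the isotonic ones.

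ssp-16 read 4.15, 3.81 and 3.68 on isotonic plates, 4.85, 5.62 and 5.33 at 15 min, 4.11, 4.88 and 4.19 at 1 h, 3.55, 3.53 and 3.55 at 6 h and 3.71, 4.87 and 4.82 at 1 generation. The 15 min values were above the isotonic values, with a change of 1.39 ± 0.30 (adjusted p = 0.00621) that was under 3-fold. ssp-31 read 3.46, 3.36 and 4.04 on isotonic plates, 4.72, 4.50 and 4.82 at 15 min, 4.34, 3.97 and 3.78 at 1 h, 3.63, 3.54 and 3.53 at 6 h and 4.04, 3.92 and 3.87 at 1 generation, and it too was higher at 15 min without reaching 3-fold (1.06 ± 0.17, adjusted p = 0.000975).

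The remaining ssp probe sets for 1 gene were not called in wild type. ssp-33 read 2.26, 2.22 and 2.35 on isotonic plates, 2.77, 2.74 and 3.19 at 15 min, 2.47, 2.48 and 2.23 at 1 h, 2.22, 2.22 and 2.42 at 6 h and 2.45, 2.45 and 2.42 at 1 generation, all of them under 3.24, the lowest third-highest value of any probe set tested. ssp-19 read 2.75, 2.66 and 2.78 on isotonic plates, 3.08, 3.06 and 2.79 at 15 min, 2.76, 2.83 and 2.74 at 1 h, 2.69, 2.68 and 2.70 at 6 h and 2.97, 2.75 and 2.69 at 1 generation, also under that value, the level at which a fall cannot be resolved. ssp-37 read 6.54, 5.96 and 6.68 on isotonic plates, 7.09, 7.19 and 7.20 at 15 min, 6.78, 6.88 and 6.70 at 1 h, 6.13, 6.48 and 5.53 at 6 h and 6.75, 6.76 and 6.74 at 1 generation, and all 3 values at 15 min lay above the isotonic ones, a change of 0.77 ± 0.21 (adjusted p = 0.0202).

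The same family was far higher in the collagen mutants. In dpy-9 39 of 41 members (95.1%) were higher than in isotonic N2 and 0 lower, against 16% of all probe sets called higher, with a median change of 4.31 (19.8-fold), beside -0.23 for all probe sets. In dpy-10 38 of 41 (92.7%) were higher and 0 lower, against 18.1% of all probe sets, with a median change of 4.02 (16.2-fold), beside -0.22. The dpy-9 calls include ssp-19 and ssp-33, and the dpy-10 calls include ssp-33. Both genes passed the filter through osm-8, dpy-9 and dpy-10 alone and had to differ there. Without them, 30 msp and 7 ssp calls are left in each dpy mutant. The called msp changes ran from 3.83 to 5.74 in dpy-9 and from 3.48 to 4.78 in dpy-10. Many other genes also rose in these mutants, and members were 39 of 2223 probe sets called higher in dpy-9 and 38 of 2511 in dpy-10.

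The msp gene with the largest rise was msp-142. It read 5.83, 4.77 and 6.07 in isotonic N2, whereas dpy-9 arrays read 10.90, 11.11 and 11.86 and dpy-10 arrays 10.38, 10.62 and 10.01. In the osm mutants it read 10.01, 9.73 and 9.56 for osm-8, 4.80, 4.91 and 4.14 for osm-7 and 5.06, 5.07 and 6.24 for osm-11. The dpy and osm-8 values stood apart from all isotonic N2 values, while those of osm-7 and osm-11 overlapped them. The changes were 5.74 ± 0.37 (SE) in dpy-9 (53.3-fold, adjusted p = 1.12e-09), 4.78 ± 0.37 in dpy-10 (adjusted p = 8.3e-09) and 4.21 ± 0.37 in osm-8 (adjusted p = 1.24e-07). In wild type it read 8.29, 8.45 and 8.52 at 15 min, 7.70, 7.04 and 6.79 at 1 h, 4.09, 3.98 and 4.13 at 6 h and 7.34, 7.29 and 7.33 at 1 generation.

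The osm-8 mutant, likewise grown on isotonic plates, also had high levels. Here 37 of 41 members (90.2%) were higher than in N2 and 0 lower, against 7.91% of all probe sets, with a median change of 3.57 (11.9-fold), beside -0.16 for all probe sets. These calls include ssp-19, which had to differ there, and 30 msp and 6 ssp calls are left without it. The called msp changes lay between 3.12 and 4.21. The probe set for msp-65 read 14.80, 14.79 and 15.07 for dpy-9, 14.65, 14.51 and 14.77 on the dpy-10 arrays and 14.38, 14.34 and 14.37 for osm-8, all above its isotonic N2 values given earlier. Its changes were 3.91 ± 0.31 in dpy-9, 3.67 ± 0.31 in dpy-10 and 3.39 ± 0.31 in osm-8 (adjusted p = 1.24e-08, 2.25e-08 and 1.94e-07). The values of msp-65 reached 15.1 in dpy-9, when the highest value of the whole table was 16.1.

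For msp-64 the arrays read 12.86, 13.15 and 13.28 for dpy-9, 12.31, 12.38 and 12.10 on the dpy-10 arrays and 12.50, 11.71 and 11.89 for osm-8, and 6.69, 6.93 and 6.01 for osm-7 and 7.14, 7.71 and 8.64 for osm-11. The probe set shared by msp-51, msp-53, msp-55 and msp-57 read 14.62, 14.53 and 14.74 for dpy-9, 14.26, 14.31 and 14.26 on the dpy-10 arrays, 14.10, 13.89 and 14.01 for osm-8, 9.92, 10.20 and 9.44 for osm-7 and 10.29, 10.26 and 11.45 for osm-11. Both were above isotonic N2 on every osm-8, dpy-9 and dpy-10 array. The rises of the shared probe set were the smallest among called msp members in dpy-9 and dpy-10, 3.83 ± 0.29 and 3.48 ± 0.29.

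The 2 other osm mutants did not share this rise. In osm-11 0 of 41 members were called in either direction by limma, against 3.4% of all probe sets, 1 had an unadjusted p under 0.05, and the median change was -0.09. Without replicate 3, which read higher across the family, the median was -0.48 and 0 were again called. In osm-7 1 of 41 members was lower (2.44%) and 0 higher, against 0.267% of all probe sets called lower, with a median change of -0.98. For 23 members all 3 osm-7 values were below all 3 isotonic N2 values, as they were for 19.6% of all probe sets, and 30 members had an unadjusted p under 0.05. The called probe set was msp-152, named after its values were seen, which read 8.78, 8.26 and 9.72 in N2 and 7.40, 7.90 and 6.48 for osm-7, a change of -1.66 ± 0.38 (adjusted p = 0.00785). Without isotonic replicate 2 there were 4 calls, without isotonic replicate 1 or 3 or osm-7 replicate 1 or 3 there were 0, and without osm-7 replicate 2 there was 1. The msp-65 values were 9.78, 10.23 and 9.51 for osm-7 and 10.22, 10.30 and 11.59 for osm-11, of which the former lay below and the latter overlapped the isotonic values.

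**Figure D3:**
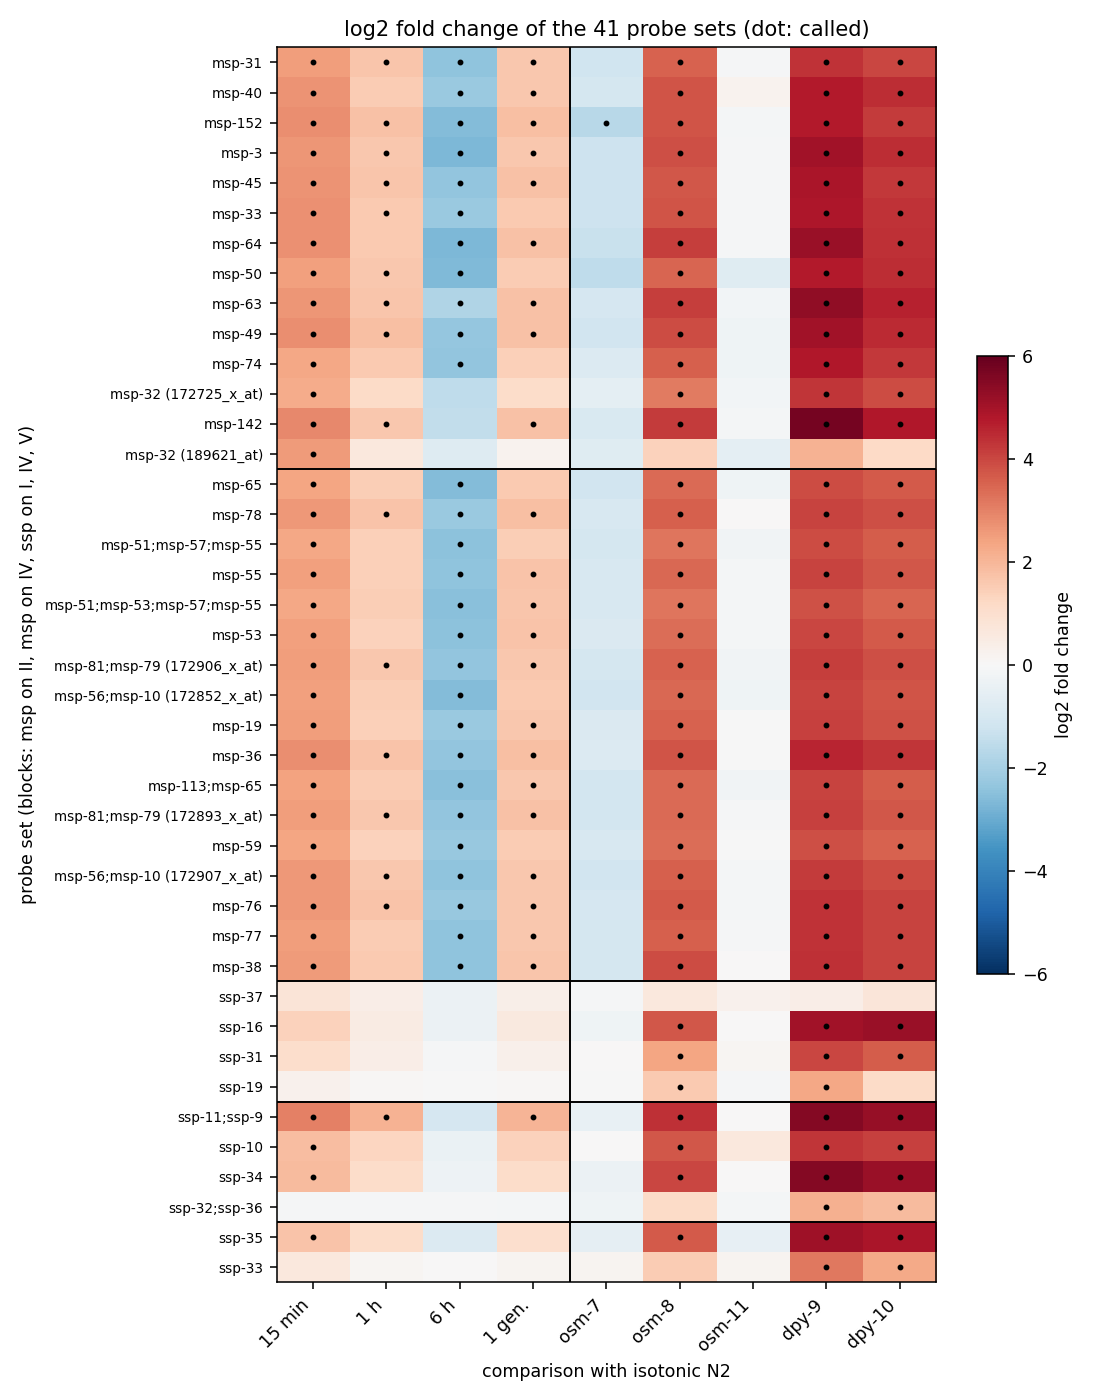
Log2 fold change of each of the 41 probe sets (rows, in blocks by family and chromosome and ordered by mean intensity within a block) in the 9 comparisons with isotonic N2 (columns), with a dot for each call. Red columns at 15 min, 1 h, 1 generation, osm-8, dpy-9 and dpy-10 and a blue column at 6 h run through the msp rows, while ssp rows are mostly paler in wild type and all but ssp-37 carry a dot in dpy-9.

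Tests between mutants separated osm-8 from osm-7 and made no call between the mutants with high levels. In osm-8 36 of 41 members (87.8%) were higher than in osm-7 and 0 lower, against 4.76% of all probe sets, with a median difference of 4.51. Between dpy-10 and dpy-9 0 of 41 were called by limma in either direction, against 0.627% of all probe sets, and 5 had an unadjusted p under 0.05. The median difference was -0.32, and for 29 members all 3 dpy-10 values were below all 3 dpy-9 values, as they were for 10.1% of all probe sets. Between the mean of both dpy mutants and osm-8 limma again called 0, against 7.36% of all probe sets, and the median difference was 0.62. An unadjusted p under 0.05 was found for 22 members. It was found for a similar share of all probe sets tested, 7264 of them (those tested being 61.5% of 22548). An adjusted p of at most 0.01 at under 3-fold was found for 12 members, 5 of 31 msp and 7 of 10 ssp probe sets. The median difference was 0.55 for msp and 1.11 for ssp. Between osm-11 and osm-7 limma called 0, against 0.476% of all probe sets, with 30 at an unadjusted p under 0.05 and a median difference of 0.86.

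Most ssp probe sets were called higher in the mutants with high msp levels. In dpy-9 9 of 10 were higher, in dpy-10 8 of 10 and in osm-8 7 of 10, against 16%, 18.1% and 7.91% of all probe sets. Of these, ssp-19 and ssp-33 lay below 3.24 on all N2, osm-7 and osm-11 arrays, so that they passed the filter through osm-8, dpy-9 and dpy-10 alone and had to differ there, and 7, 7 and 6 calls are left without them. ssp-34 had the largest rise of those for 1 gene, with values of 9.14, 9.06 and 8.98 for dpy-9, 8.87, 8.80 and 8.57 on the dpy-10 arrays and 7.91, 7.12 and 7.65 for osm-8. Its osm-7 values were 3.17, 3.72 and 2.64 and its osm-11 values 3.38, 3.65 and 3.64, near the isotonic N2 values. The changes were 5.51 ± 0.25 in dpy-9 (45.6-fold, adjusted p = 1.31e-11), 5.20 ± 0.25 in dpy-10 (adjusted p = 2.61e-11) and 4.02 ± 0.25 in osm-8 (adjusted p = 1.96e-09).

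ssp-16, measured by a probe set that ends in _at alone, read 8.91, 8.93 and 8.94 for dpy-9, 9.21, 9.02 and 9.0 on the dpy-10 arrays, 7.46, 7.49 and 7.89 for osm-8, 3.73, 3.64 and 3.46 for osm-7 and 3.73, 3.70 and 4.22 for osm-11. Its rise in dpy-9 was 5.05 ± 0.17 (adjusted p = 2.74e-13, the lowest of all members there). ssp-35, also measured by such a probe set, read 9.61, 9.60 and 9.83 for dpy-9, 9.62, 9.43 and 9.33 on the dpy-10 arrays, 8.42, 8.30 and 8.11 for osm-8, 3.39, 4.59 and 4.18 for osm-7 and 3.80, 3.80 and 4.58 for osm-11, a change of 5.11 ± 0.26 in dpy-9 (adjusted p = 5.36e-11). Both genes stood above all N2 arrays in the 3 mutants with high msp levels. ssp-10 read 10.40, 10.83 and 10.67 for dpy-9, 10.43, 10.51 and 10.32 on the dpy-10 arrays, 10.28, 9.82 and 10.04 for osm-8, 6.26, 6.47 and 6.34 for osm-7 and 6.59, 6.94 and 7.39 for osm-11, with a change of 4.31 ± 0.19 in dpy-9 (adjusted p = 1.07e-11).

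ssp-31 read 7.93, 7.31 and 7.60 for dpy-9, 7.27, 7.29 and 7.15 on the dpy-10 arrays, 6.22, 5.94 and 5.78 for osm-8, 3.80, 3.38 and 3.66 for osm-7 and 3.61, 3.88 and 3.77 for osm-11, with a change of 4.0 ± 0.19 in dpy-9 (adjusted p = 3.5e-11). ssp-33 lay above 3.24 in these mutants, at 5.40, 5.59 and 5.29 for dpy-9, 4.52, 4.90 and 4.27 on the dpy-10 arrays and 3.83, 4.01 and 3.52 for osm-8, but not in osm-7 (2.46, 2.45 and 2.43) or osm-11 (2.43, 2.40 and 2.43), so that only a bound can be given for its change. Set against 3.24, it was at least 4.54-fold higher in dpy-9 (fitted change 3.15 ± 0.15, adjusted p = 4.15e-11). ssp-19 read 5.67, 5.16 and 4.32 for dpy-9, 2.75, 5.16 and 3.75 on the dpy-10 arrays, 3.92, 4.33 and 4.71 for osm-8, 2.75, 2.70 and 2.72 for osm-7 and 2.62, 2.68 and 2.71 for osm-11. Against the same limit it was at least 3.49-fold higher in dpy-9 (fitted change 2.32 ± 0.43, adjusted p = 0.000153) and at least 2.11-fold higher in osm-8 (1.59 ± 0.43, adjusted p = 0.00573), and its dpy-10 values were spread too widely to be called (adjusted p = 0.023).

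ssp-37 was the exception to the family. It read 6.95, 6.75 and 6.74 for dpy-9, 7.28, 7.09 and 7.05 on the dpy-10 arrays, 7.65, 6.75 and 6.74 for osm-8, 5.63, 6.75 and 6.55 for osm-7 and 6.69, 6.32 and 7.01 for osm-11. It was the 1 member called in none of the 9 comparisons with isotonic N2, with changes of 0.42 ± 0.29 in dpy-9 (adjusted p = 0.207) and 0.75 ± 0.29 in dpy-10 (adjusted p = 0.0302). Its values lay above 3.24 on all arrays, unlike those of ssp-19 or ssp-33. Several lay close together, such as 6.75, 6.76 and 6.74 at 1 generation and 6.75 and 6.74 in both osm-8 and dpy-9. The background of this probe set was not measured, so that no change and a level near its background cannot be told apart.

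The msp gene with the smallest changes was msp-32, which has a pair of probe sets that disagree. The one ending in _at alone read 3.47, 3.24 and 4.75 in isotonic N2, 6.14, 6.38 and 6.59 at 15 min, 5.54, 3.51 and 4.35 at 1 h, 2.91, 3.02 and 3.28 at 6 h and 3.69, 3.47 and 4.93 at 1 generation. In the mutants it read 5.20, 4.27 and 8.20 for dpy-9, 6.41, 4.02 and 4.67 on the dpy-10 arrays, 7.52, 4.04 and 4.02 for osm-8, 3.48, 2.92 and 2.93 for osm-7 and 2.97, 3.47 and 3.28 for osm-11. These replicates were far apart in osm-8 and dpy-9, and the change in dpy-9 was 2.07 ± 0.95 (adjusted p = 0.0616), whereas that at 15 min was called (2.55 ± 0.52, adjusted p = 0.00396). The other, ending in _x_at, read 6.14, 5.93 and 6.80 in isotonic N2, 10.31, 10.61 and 10.78 for dpy-9 and 4.72, 4.78 and 4.77 at 6 h, with changes of 4.28 ± 0.25 in dpy-9 (adjusted p = 3.02e-10) and -1.53 ± 0.18 at 6 h (adjusted p = 0.000119). Signal from msp-32 and from its relatives cannot be told apart in the latter.

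Among themselves the msp probe sets were close to uniform. Apart from the _at probe set for msp-32, each of the other 30 msp probe sets followed the median of the other members over the 30 arrays with r between 0.989 and 0.998, and the ssp probe sets with r between 0.708 and 0.984. These values are a description, since the probe sets share their arrays and can bind each other's transcripts. By chromosome, the median change in dpy-9 was 4.83 for msp probe sets on chromosome II and 4.08 for those on chromosome IV, in osm-8 3.77 and 3.43, and at 6 h -2.33 and -2.41. The 15 msp probe sets with a mean below the msp median had a median change of 4.81 in dpy-9, and the 15 above it 4.06. Chromosome and intensity go together here, and their parts in the size of the change were not tested.

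The 5 members that end in _at alone give the pattern without probes marked as binding other transcripts. Of these, 4 were called higher in dpy-9, 3 in dpy-10 and 4 in osm-8, against 16%, 18.1% and 7.91% of all probe sets. The median change in dpy-9 was 5.05. The calls in dpy-9 and osm-8 include ssp-19, which had to differ there. At 15 min 3 were called higher, against 1.28% of all probe sets, with a median of 1.69. At 1 h, 6 h and 1 generation 0 of 5 were called, with medians of 0.65, -0.34 and 0.59. Of all probe sets, 0.981% were called higher at 1 h, 0.663% lower at 6 h and 0.959% higher at 1 generation. Of these 5 probe sets 4 are for ssp genes, and all 28 calls at 6 h were on _x_at probe sets.

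One further probe set carried msp or ssp genes and was left out by the rule, since 3 of its 17 genes (W08D2.9, Y59E9AR.1 and Y59E9AR.7) have other names. It changed by 2.40 ± 0.23 (SE) at 15 min (adjusted p = 2.2e-05), by -2.50 ± 0.23 at 6 h (adjusted p = 1.61e-05) and by 3.97 ± 0.29 in dpy-9 (adjusted p = 4.23e-09), within the range of the called msp members.

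**Figure D4:**
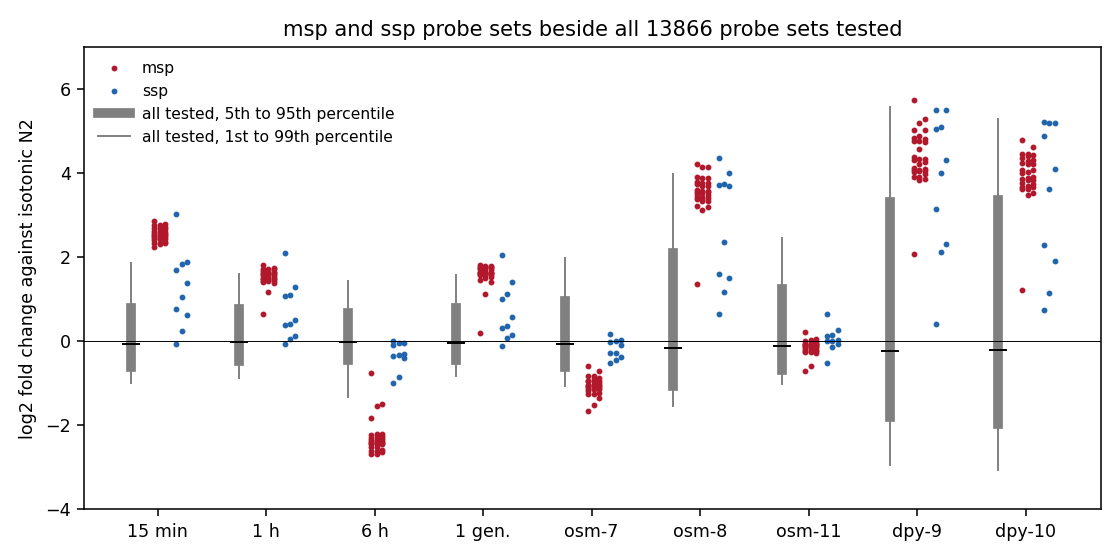
Log2 fold change of the msp (red) and ssp (blue) probe sets in each comparison with isotonic N2, beside all probe sets tested (grey, thick bar and thin line for the percentile ranges given in the key, tick for the median). At 6 h the msp median is -2.39 and 30 of the 31 msp points lie below the end of the thin line at -1.32, whereas in dpy-9 the msp median is 4.32 and the largest msp point, 5.74, is the 1 above the end of the thin line at 5.59.

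The genes whose 10 group means were most like the median of the members are given as a description. Of 12979 other probe sets for 1 gene, 10 had a Pearson correlation above 0.98 with it over the 10 groups, namely Y59H11AM.1, ZK1248.4, msd-4, F58A6.9, ZK546.3, msd-2, nspd-4, nspd-1, nspd-2 and nsph-3.2, with values from 0.982 for nsph-3.2 to 0.998 for Y59H11AM.1. The msd genes encode proteins with a major sperm protein domain, and the nspd genes encode a family of nematode-specific peptides. All 10 were called higher at 15 min and for osm-8, dpy-9 and dpy-10, and 9 were called lower at 6 h. They were picked for likeness over these same 10 groups, so such calls follow largely from the choice. The level of msd-4 was 6.48 in isotonic N2, 9.23 after 15 min, 3.75 after 6 h and 11.61 in dpy-9 (means, n = 3). The level of nspd-1 was 6.40, 8.82, 4.24 and 11.31 in the same groups.

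Other sperm genes were read from a list of 44 genes for sperm structure and spermatogenesis outside the members, of which 33 had a probe set and 20 were tested. In dpy-9 14 of these 20 were higher and 1 lower, with a median change of 3.91, in dpy-10 14 and 1 (3.85), and in osm-8 11 and 0 (2.06), where 16%, 18.1% and 7.91% of all probe sets were called higher. Of those called higher, 5, 5 and 3 lay below 3.24 on all isotonic N2 arrays. Without them, 9, 9 and 8 calls are left. Their fitted changes, which enter these medians, start from below the limit of the filter. All of them but spe-18 reached 3.24 in no group other than osm-8, dpy-9 and dpy-10. Apart from spe-18, they therefore passed the filter through these mutants alone and had to differ there. In wild type the counts were 4 higher at 15 min, 1 at 1 h, 0 at 1 generation and 2 lower at 6 h. Of all probe sets, 1.28%, 0.981% and 0.959% were called higher and 0.663% lower at these exposures. The list medians were 0.12, 0.07, 0.00 and -0.11. The genes called at 15 min were gsp-3, gsp-4, msd-2 and msd-4, and those called at 6 h were msd-2 and msd-4. The 1 call at 1 h was gsp-3 (1.78), and the 1 gene lower in the dpy mutants was zipt-7.1 (-1.77 in dpy-9), a zinc transporter. Of the genes in these sentences, msd-2 and zipt-7.1 were named after their values were seen. In osm-7 msd-2 was lower (-1.76), and in osm-11 0 of 20 were called by limma, with 3 at an unadjusted p under 0.05.

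gsp-3 and gsp-4, near-identical sperm protein phosphatases whose signals may mix, rose by 6.68 ± 0.29 and 5.81 ± 0.34 in dpy-9 (adjusted p = 9.19e-12 and 3.25e-10). At 15 min gsp-3 rose by 2.64 (adjusted p = 0.000226), and at 6 h its change was -0.57 (adjusted p = 0.413). spe-18, which is needed to assemble major sperm protein in developing sperm, was below 3.24 on all isotonic N2 arrays (mean 2.60) and at a mean of 8.76 in dpy-9, at least 45.7-fold above that limit (adjusted p = 6.68e-13). At such a level a fall in wild type cannot be resolved. msd-4 rose by 2.75 at 15 min (adjusted p = 0.000222), fell by 2.72 at 6 h (adjusted p = 0.000277) and rose by 5.13 in dpy-9 (adjusted p = 1.95e-08).

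Of the genes that regulate sperm gene expression and the switch from sperm to oocytes, 19 were tested. In dpy-9 0 of these were higher and 2 lower, with a median change of -1.15, when 16% of all probe sets were called higher and 7.98% lower. At the 4 exposures limma called 0, with 5 at an unadjusted p under 0.05 at 15 min, 4 at 1 h, 1 at 6 h and 3 at 1 generation. The 2 lower were tra-2, a receptor that promotes female fate (-2.46, adjusted p = 7.36e-10), and fem-3, which promotes sperm fate (-1.83, adjusted p = 7.92e-06). In dpy-10 tra-2, fem-3, fog-2 and puf-8 were lower, when 10.2% of all probe sets were. fog-3, needed for sperm fate, was the 1 gene called higher in dpy-10 and in osm-8. It lay below 3.24 on all isotonic N2 arrays and was at least 3.25-fold higher in dpy-10 and at least 2.82-fold higher in osm-8. It, fog-2 and puf-8 were named after their values were seen.

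Of the receivers of the major sperm protein signal in oocyte and sheath, 14 were tested. In dpy-9 1 was higher and 2 lower, beside 16% and 7.98% of all probe sets, and in dpy-10 3 were higher and 4 lower, beside 18.1% and 10.2%, with medians of -0.61 and -0.55. In wild type, osm-7, osm-8 and osm-11 limma called 0, with between 3 and 10 at an unadjusted p under 0.05 in each comparison. The genes called in dpy-9 were unc-43, a calcium and calmodulin-dependent kinase (2.52, adjusted p = 1.4e-07), dab-1, an adaptor protein (-2.32, adjusted p = 2.86e-09), and inx-14, a gap junction protein (-1.59, adjusted p = 2.12e-08). In dpy-10 these 3 were joined by vab-1 (-1.77) and inx-22, which were lower, and gsa-1 and itr-1, which were higher, all named after their values were seen. vab-1 encodes the Eph receptor for the signal.

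Markers of other cells and stages moved with the mutants in which the family was high. Of 22 oocyte and early embryo genes, 19 were lower in dpy-9 and 21 in dpy-10, against 7.98% and 10.2% of all probe sets called lower, with medians of -1.93 and -2.31. In osm-8 limma called 0, with a median of -0.86. All 22 had an unadjusted p under 0.05 there, as did 8065 of all probe sets tested (those tested being 61.5% of 22548). In wild type limma also called 0, with 21 at an unadjusted p under 0.05 at 15 min, 18 at 1 h, 0 at 6 h and 17 at 1 generation, and with medians of -0.40, -0.26, -0.07 and -0.29. Of all probe sets tested, 5015, 3569, 2870 and 3643 had such a p at these exposures. In wild type the 3 exposures with high msp levels were thus also those with the lower oocyte medians, while the medians in osm-7 and osm-11, where msp levels were not high, were -0.30 and -0.43. The part of this shift in the msp result was not tested. The largest falls in dpy-9 were those of lin-41 (-2.80), nos-2 (-2.38), egg-2 (-2.35) and egg-1 (-2.29), which act in oocyte growth, germ cell fate and the egg surface. The summed intensity of the 22 genes lay between 157347 and 161660 in isotonic N2, 32576 and 38097 in dpy-10, 41047 and 51288 in dpy-9, and 85394 and 93718 in osm-8.

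Of 15 genes of the molt and late larva, 14 were tested, and 13 were higher in dpy-9, 12 in dpy-10 and 10 in osm-8, against 16%, 18.1% and 7.91% of all probe sets, with medians of 3.46, 3.65 and 2.29. Of those called, 6, 5 and 4 lay below 3.24 on all isotonic N2 arrays. Without them, 7, 7 and 6 calls are left, whereas the medians include them. All of them but noah-2 reached 3.24 in no group other than osm-8, dpy-9 and dpy-10. Apart from noah-2, they therefore passed the filter through these mutants alone and had to differ there. The largest fitted rises in dpy-9 were those of mlt-8 (6.59), bli-2, bli-1 (4.81) and rol-6 (4.64), a molting gene and 3 cuticle collagens, of which bli-2 was below 3.24 in isotonic N2 and at least 25.7-fold higher in dpy-9. Their summed intensity lay between 259 and 306 in isotonic N2, 308 and 393 after 15 min, 278 and 332 after 6 h, 4357 and 5076 in dpy-10, 4449 and 5955 in dpy-9, and 1410 and 2119 in osm-8. In osm-11 it lay between 529 and 1067, with 3 genes called, in the absence of a call in the msp and ssp family. In wild type noah-1 (1.66) and noah-2 (2.12), apical matrix genes named after their values were seen, were higher at 1 h and 0 genes were called at the other exposures. Both were also higher in osm-7 and, with mlt-8, in osm-11. The part of these genes' tissues or stages in the level of the msp family was not tested.

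Of 6 tested genes of the adult intestine and cuticle, 3 were lower in dpy-9, where 7.98% of all probe sets were, the yolk protein genes vit-1 (-1.96), vit-5 (-1.79) and vit-4 (-1.71). In dpy-10 and osm-8 limma called 0, with 6 and 3 at an unadjusted p under 0.05, beside 10556 and 8065 of all probe sets tested. Of 15 germ line meiosis genes, 4 were lower in dpy-9, namely spo-11 (-2.05), prom-1 (-1.87), cosa-1 (-1.64) and msh-5 (-1.63), with a list median of -1.20. In dpy-10 spo-11, prom-1, zim-1 and him-8 were lower, where 10.2% of all probe sets were, the last pair named after their values were seen. In wild type limma called 0, with 5 at an unadjusted p under 0.05 at 15 min, 3 at 1 h, 6 at 6 h and 1 at 1 generation. Of 10 genes of male neurons and glands, 6 (pkd-2, lov-1, cwp-1, cwp-3, cwp-4 and try-5) stayed on all 30 arrays below 3.24, the lowest third-highest value of the probe sets tested, and 3 were tested, of which limma called 0, with 1 at an unadjusted p under 0.05 in each dpy mutant and 0 in the other comparisons with isotonic N2. The summed intensity of the 10 genes lay between 61.5 and 68.9 in isotonic N2, 57.0 and 59.9 in dpy-9 and 59.4 and 64.7 in osm-8. At 6 h, where msp levels were lowest, it lay between 61.3 and 63.9. Most of these genes were thus not detected in any group, and a part of males in the msp levels was not tested.

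**Figure D5:**
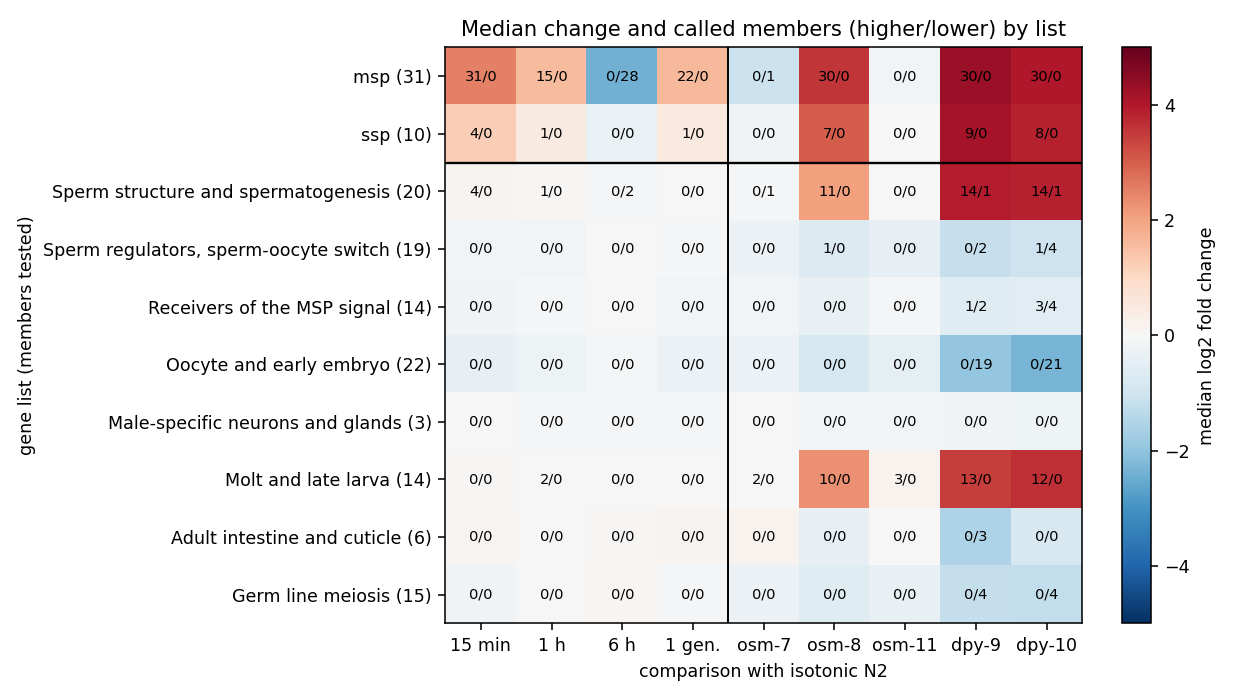
Median log2 fold change (colour) and the number of members called higher and lower (text) for msp, ssp and 8 gene lists in the 9 comparisons with isotonic N2, with the number of probe sets or genes tested in brackets. The rows for sperm structure and for the molt are red under osm-8, dpy-9 and dpy-10 like the msp row and pale at the 4 exposures, where the msp row has medians of 2.53, 1.57, -2.39 and 1.63, and the oocyte row is blue in dpy-9 and dpy-10.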

How the data were processed

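The study measured whole-worm RNA of C. elegans on 30 Affymetrix arrays, 3 in each of 10 groups taken from the sample labels. Background adjustment and normalization were done by the authors with GC-RMA, run in Partek software (versions not given in the sources used here), and the deposited values are linear intensities, 1 per probe set and array, of which the log2 was taken here. GC-RMA adjusts the background by probe base content, which compresses differences near the background, and no build of the annotation is given.

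Present calls, which the study used as a filter, were not used here. In their place, probe sets were ranked on the third brightest of their 30 values and as many kept as the study had kept, 61.5% of those that are not controls, which set a limit at a log2 intensity of 3.24. limma 3.58.1 (R 4.3.3) was fitted to the 15 wild type arrays and to the 18 isotonic arrays, with Benjamini-Hochberg adjustment over all probe sets tested, in place of the SAM procedure of the study. Calls required an adjusted p of at most 0.01 and 3-fold. On data simulated for dpy-9 against N2 over the same number of probe sets, the fit recovered 93% of changes of 2 on the log2 scale and 100% of changes of 3, with 0 false calls. The simulation changed 100 probe sets by each size and drew noise independently for each probe set. It therefore held no shift of a whole family on an array, and its 0 false calls do not cover such shifts.

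Alternatives changed the filter, the arrays in the fit, the variance prior, centring, quantile normalization, an added intensity of 1 or 32, the thresholds, the probe sets, a block by replicate number and each array left out in turn. Members, gene lists (8 lists of 150 genes, 1 probe set per gene) and the naming rule were chosen with earlier results of these data known. Named in full are the msp and ssp probe sets of highest mean, of most genes and of largest and smallest change in dpy-9, at 6 h and in osm-8, all ssp probe sets for 1 gene, at most 4 genes per list by change in dpy-9 or at 6 h, and the 10 genes most alike. Symbols come from the platform annotation and matched RefSeq for all members. No sequence of these genes was among the reference tables used here. Other steps used Python 3.11.15 with pandas 2.3.3 and numpy 2.4.6, and figures matplotlib 3.10.9. The number of arrays limits the precision.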

Additional observations from a re-analysis of the deposited data

Results flagged for a closer look

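Tests made directly between groups separated the family in 3 cases. From 1 h to 6 h at 200 mM NaCl, 33 of 41 members were called lower, against 1.38% of all probe sets. From 6 h to 1 generation, 33 of 41 were called higher, against 0.801%. In osm-8 against osm-7, 36 of 41 were called higher, against 4.76%. Each is a limma contrast between 2 groups of 3 arrays, so that the difference itself was tested, and the counts stayed between 78.0 and 80.5%, at 80.5% and at 87.8% of members with any 1 array left out.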

How the results depend on the processing

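With the 5 _at probe sets alone, 0% of members were called at 1 h, at 6 h, at 1 generation and in osm-7, 60.0% in dpy-10 and 20.0% both from 1 h to 6 h and from 6 h to 1 generation, with median changes of 1.69 at 15 min, 0.65 at 1 h, -0.34 at 6 h, 0.59 at 1 generation, -0.37 in osm-7, 5.05 in dpy-9 and 4.89 in dpy-10. Centring the arrays gave 19.5% at 1 h and 31.7% at 1 generation. Adding 32 before the log2 gave 24.4% at 1 h and 0% in osm-7, and no filter and quantile normalization gave 0% in osm-7 as well, the latter also 2.44% in both dpy mutants against osm-8. The looser rule (adjusted p of 0.05, 2-fold) gave 80.5% at 1 h, 39% in osm-7, 26.8% at 1 h against 15 min, 7.32% in osm-11 against osm-7 and 19.5% in the dpy mutants against osm-8. Without a fold minimum these were 80.5% at 1 h, 7.32% in osm-7, 9.76% at 1 h against 15 min, 2.44% in dpy-10 against dpy-9 and 29.3% in the dpy mutants against osm-8. The share of all probe sets called was not computed for these alternatives. Their percentages therefore cannot be read as particular to the family. With 1 array left out, the percentage called ran from 2.44 to 73.2% at 1 h and at 1 generation, from 0 to 9.76% in osm-7 and from 0 to 2.44% in dpy-10 against dpy-9 (the last without dpy-10 replicate 2). Deviations of same-numbered arrays from their group means had a mean r of 0.0084 over 135 pairs (-0.46 to 0.41). For arrays of different number the mean r was -0.0023 over 270 pairs (-0.43 to 0.52). Of 30 arrays, 14 correlated best with their own number. Pairing by number within a part of the series was not tested. A replicate block changed no percentage called other than that of osm-7, which became 0%. Over all settings that kept every array, 300 medians and percentages held and 32 moved. The causes of these shifts were not tested. Signal near the background limits what can be said of ssp-19 and ssp-33.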
